A study of Mus musculus with 2 samples.

Results

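The genes described here are 43 components of T cell receptor signalling, taken by symbol from the deposited table of counts per gene, in which 22036 features carry an Ensembl gene identifier. All 43 symbols were found, each on 1 identifier. Each passed the filter of a mean of at least 1 CPM (counts scaled to the library total on named genes), which left 10597 genes. The lowest mean among the 43 was 24.8 CPM, so none of the 43 was near the filter.

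A pair of mouse cultures was sequenced, with 1 mRNA library each. Both started from CD4 T cells of wild-type spleen and lymph nodes, and both were stimulated for 24 h through plate-bound anti-CD3 (10 μg/mL) and anti-CD28 (5 μg/mL), with IL-6 at 20 ng/mL and blocking of IFNγ and IL-4 by antibodies. The culture labelled pathogenic Th17 also received activin A at 20 ng/mL, and the culture labelled non-pathogenic Th17 received TGFβ1 at 2 ng/mL. The stimulus to the receptor was thus the same in both, and the cultures differed in the TGF-β family ligand. The labels state no strain, age or number of mice.

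The libraries held 30877656 (activin A) and 33470161 (TGFβ1) counts on named genes. Since each condition had 1 library, the conditions were not tested against each other, and ligand, culture and library preparation cannot be told apart. A range in brackets after a fold is a 95% exact (Clopper-Pearson) interval for counting error, which leaves out variation between cultures. Of the CD4 T cell markers listed, Cd3e, Cd4 and Thy1 were well above the filter, and the receptor constant regions Trac, Trbc1 and Trbc2 were not analysed here. Marker lists of B cells, NK cells, macrophages, dendritic cells and neutrophils summed to between 0 and 0.898 CPM per list and library. Of these 21 genes, 9 had no count in either library, among them the B cell gene Pax5, the NK cell gene Ncr1 and the macrophage genes Csf1r and Adgre1. CD8 T cell markers summed to 1.91 CPM in the activin A and 1.89 CPM in the TGFβ1 culture. In RNA from whole cultures, fewer cells of a type and less RNA per cell cannot be told apart.

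As background, the αβ receptor has no enzyme of its own and signals through the CD3 chains and the zeta chain. The Src family kinase Lck phosphorylates their tyrosine motifs, ZAP-70 docks there, and ZAP-70 then phosphorylates the adaptors LAT and SLP-76. Phospholipase Cγ1 on that scaffold makes calcium-releasing inositol trisphosphate and diacylglycerol, which feeds the Ras-MAPK and PKC-θ arms. Phosphatases, Csk, diacylglycerol kinases and Sprouty-type proteins limit the signal. In Th17 differentiation the strength of this signal is one of the known inputs beside the cytokines.

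More of the 43 genes were lower in the activin A than in the TGFβ1 culture, by small folds. The ratio, activin A over TGFβ1 culture, was below 1 for 28 genes, or 65.1%, and above 1 for 15, where 50.6% of all genes were below 1. The median log2 ratio was −0.18, with a range from −1.11 to 0.36, and over all 10597 genes the median was −0.0045. A small difference was set at a log2 ratio of 0.32 in size, a ratio of 5 to 4. Past it, 15 of the 43 genes (34.9%) were higher in the TGFβ1 culture, where the share over all genes was 15.2%, and 1 gene (2.33%) was higher in the activin A culture, where the share was 16.5%. Low-count genes scatter more, so the same shares were also taken over the 6536 genes at or above the lowest mean level of the 43. They were 10.7% and 10.9%. The 43 genes were chosen with earlier results of these data known, so the excess describes these genes only. Among 74 other genes of the pathway, described below, the shares were 18.9% and 13.5% and the median log2 ratio was −0.017.

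The fold of most components stayed below 1.5. At 1.5-fold, 4 genes (9.30%) were higher in the TGFβ1 culture, namely Ptpn22, Tec, Plcg1 and Cd3e. The share was 5.76% over all genes and 2.51% over the 6536 genes at or above the lowest mean level of the 43. None was higher in the activin A culture, against 7.2% and 3.26%. At 2-fold the single gene was Ptpn22 (2.33%), against 1.95% of all genes and 0.597% of the 6536. None was higher in the activin A culture, against 2.25% and 0.505%. The counting interval lay below a ratio of 1 for 25 genes (58.1%), above it for 13 (30.2%), and spanned it for 5. The 5 were Cd4, Grap2, Grb2, Nras and Map2k1. Over all genes the interval lay below 1 for 34% and above 1 for 33%, and over the 6536 genes for 38.6% and 35.3%. A fragment can have added more than 1 count, so the intervals can be too narrow. Among the 13, the lower bounds of Cd5, Cd6 and Spred1 were 1.00 after rounding.

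**Figure D1:**
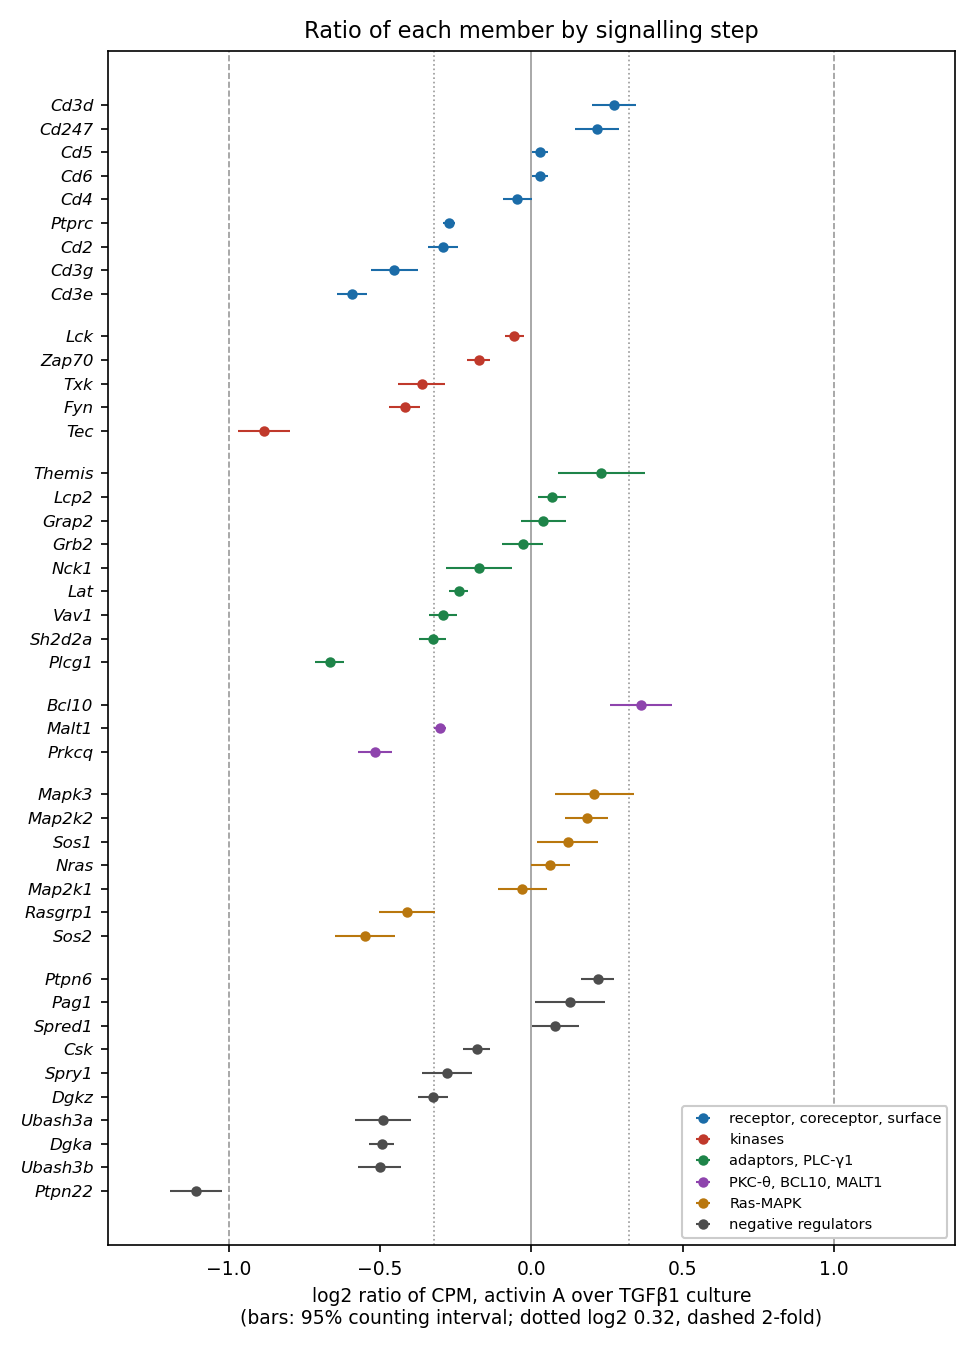
The log2 ratio of CPM (x axis, activin A over TGFβ1 culture) of each of the 43 genes, grouped by signalling step, with bars for the 95% counting interval and lines at the log2 limit of 0.32 and at 2-fold. All 5 kinases lie left of 0, Ptpn22 alone passes the 2-fold line at −1.11, and Bcl10 at 0.36 is the gene right of the 0.32 line.

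The antigen receptor chains did not keep the same proportions in the 2 libraries. Cd3e, which encodes the CD3ε chain, had 5169 counts in the activin A and 8423 in the TGFβ1 culture, or 100.2 and 152 FPKM (fragments relative to transcript length and depth, the scale on which genes can be compared). It was 1.51-fold higher in the TGFβ1 culture (1.46 to 1.56). Cd3g, for CD3γ, had 2270 and 3359 counts, or 63.5 and 86.8 FPKM, and was 1.37-fold higher there (1.30 to 1.44). CD3ε pairs with CD3γ or with CD3δ in the complex.

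Cd3d and Cd247 went the other way by smaller folds. Cd3d, for CD3δ, had 3321 counts in the activin A and 2970 in the TGFβ1 culture (58.5 and 48.6 FPKM) and was 1.21-fold higher in the activin A culture (1.15 to 1.27). Cd247, for the zeta chain that carries most of the tyrosine motifs, had 3222 and 2998 counts (56.0 and 48.3 FPKM) and was 1.16-fold higher there (1.10 to 1.22). The FPKM of Cd3e was 1.71 times that of Cd3d in the activin A and 3.12 times in the TGFβ1 culture, and that of Cd3g was 1.09 and 1.78 times. The FPKM of Cd247 stayed close to that of Cd3d, at 0.958 and 0.992 times. The annotated exons of Cd247 overlap those of Pou2f1 on the opposite strand over 56.4% of their length, and the labels name no step that marks the strand, so some counts of Cd247 could belong to Pou2f1, which itself had 2686 and 2171 counts.

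The 3 CD3 genes lie side by side on chromosome 9 of mm10. Cd3g (ENSMUSG00000002033, 44969572 to 44980431, minus strand) and Cd3d (ENSMUSG00000032094, 44981786 to 44987339, plus strand) are divergent, with 1354 bases between them, and Cd3e (ENSMUSG00000032093, 44998740 to 45009627, minus strand) follows after 11400 bases. Their promoter windows are shown because these neighbours differed in direction, Cd3g and Cd3e being higher in the TGFβ1 and Cd3d in the activin A culture. Each window runs 5′ to 3′ on the gene's strand from 250 bases before to 50 bases after the RefSeq start (build GRCm38.p6, the assembly of mm10), and capitals mark matches to the 5 motifs described next.
Cd3g, chr9:44980382-44980681, minus strand: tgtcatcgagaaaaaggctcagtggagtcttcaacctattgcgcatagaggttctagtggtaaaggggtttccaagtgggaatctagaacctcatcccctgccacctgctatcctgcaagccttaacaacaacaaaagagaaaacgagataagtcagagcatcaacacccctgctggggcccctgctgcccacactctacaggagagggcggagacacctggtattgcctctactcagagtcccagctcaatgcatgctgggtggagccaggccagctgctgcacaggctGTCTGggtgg
Cd3d, chr9:44981536-44981835, plus strand: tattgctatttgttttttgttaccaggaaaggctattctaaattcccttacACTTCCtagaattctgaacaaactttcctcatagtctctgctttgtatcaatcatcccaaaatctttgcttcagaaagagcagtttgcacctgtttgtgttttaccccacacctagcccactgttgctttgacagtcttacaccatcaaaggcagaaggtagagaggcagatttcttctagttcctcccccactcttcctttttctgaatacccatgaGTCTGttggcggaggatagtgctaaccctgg
Cd3e, chr9:45009562-45009861, minus strand: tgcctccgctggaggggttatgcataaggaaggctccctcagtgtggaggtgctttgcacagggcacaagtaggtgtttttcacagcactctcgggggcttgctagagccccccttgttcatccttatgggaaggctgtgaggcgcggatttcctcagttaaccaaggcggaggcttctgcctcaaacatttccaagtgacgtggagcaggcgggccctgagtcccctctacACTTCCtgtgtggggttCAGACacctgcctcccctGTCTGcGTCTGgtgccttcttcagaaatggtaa
The motifs searched on both strands were forkhead (GTAAACA), the Smad box (CAGAC), RUNX (TGTGGT), ETS (GGAAGT) and NFAT (GGAAAA), none of which is contained in another. The Cd3g window held 1 Smad box and the Cd3d window held 1 Smad box and 1 ETS match. The Cd3e window held 3 Smad boxes and 1 ETS match. A Smad box is common, being found in 49.6% of 32851 promoter windows of this length, and an ETS match was found in 23.8%. These are matches of letters and show no binding.

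**Figure D2:**
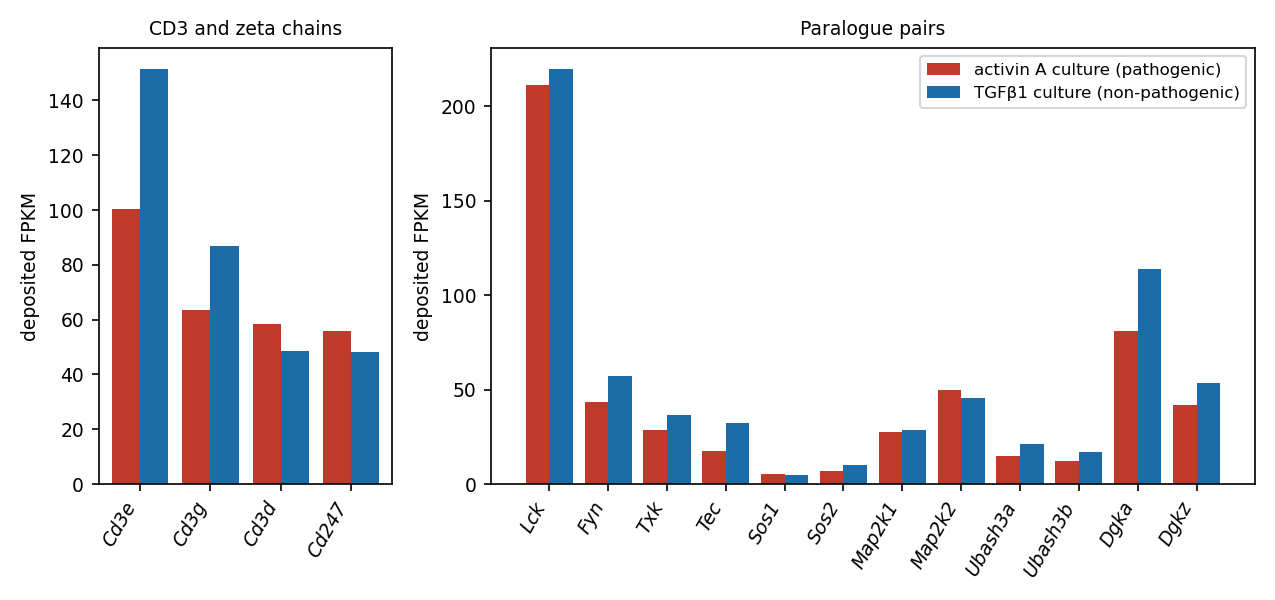
Deposited FPKM (y axis, linear from 0) in the activin A and the TGFβ1 culture for the CD3 and zeta chains (left) and for 6 paralogue pairs (right), 1 bar per library with no error bar since there was 1 library each. Cd3e stands at 100.2 and 152 FPKM while Cd3d and Cd247 stand between 48.3 and 58.5.

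The coreceptor and the other surface proteins differed by at most 1.22-fold. Cd4, whose product binds MHC class II and brings in Lck, had 6886 and 7683 counts in the activin A and TGFβ1 cultures (62.8 and 65.1 FPKM), a 1.03-fold difference whose interval spanned 1 (0.999 to 1.07). Ptprc, for the phosphatase CD45 that keeps Lck available for activation, had 38838 and 50692 counts (234 and 282 FPKM) and was 1.21-fold higher in the TGFβ1 culture (1.19 to 1.22). Cd2, an adhesion receptor, was 1.22-fold higher there (1.18 to 1.27).

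The scavenger receptor family members Cd5, a restraint on receptor signalling, and Cd6 were among the most abundant of the 43 and nearly equal between libraries. Cd5 had 22450 and 23775 counts (307 and 302 FPKM) and Cd6 had 23211 and 24587 (224 and 220 FPKM). Their log2 ratios were 0.029 for both, with lower interval bounds of 0.0029 and 0.0030. They are neighbours on chromosome 19, 50338 bases apart. Removal of a trend with transcript length and GC content over all genes turned the ratio of Cd5 to −0.024. Over the 9 receptor and surface genes the median log2 ratio was −0.046. Past the limit of 0.32, 2 genes (22.2%) were higher in the TGFβ1 culture. The share was 15.2% over all genes and 10.7% over the 6536 genes at or above the lowest mean level of the 43. None was higher in the activin A culture, against 16.5% and 10.9%.

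All 5 kinases were lower in the activin A culture, with a median log2 ratio of −0.36. The initiating kinases differed least. Lck had 15757 and 17713 counts (211 and 220 FPKM) and was 1.04-fold higher in the TGFβ1 culture (1.02 to 1.06). Zap70 had 10206 and 12438 counts (129 and 146 FPKM) and was 1.13-fold higher there (1.10 to 1.16).

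Fyn, the Src family kinase that shares substrates with Lck, differed more. It had 5246 counts in the activin A and 7580 in the TGFβ1 culture (43.4 and 57.2 FPKM) and was 1.34-fold higher in the TGFβ1 culture (1.29 to 1.39). The FPKM of Lck was 4.87 times that of Fyn in the activin A and 3.85 times in the TGFβ1 culture, and the counting intervals of the 2 ratios did not overlap.

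The Tec family kinases, which activate phospholipase Cγ1, held the largest difference of this step. Tec (ENSMUSG00000029217, chromosome 5, 72755716 to 72868483) had 1632 counts in the activin A and 3254 in the TGFβ1 culture (17.6 and 32.6 FPKM) and was 1.84-fold higher in the TGFβ1 culture (1.74 to 1.96). Txk, also called Rlk, had 2252 and 3129 counts (28.6 and 36.4 FPKM) and was 1.29-fold higher there (1.22 to 1.36). Txk had a log2 ratio of −0.36, and of −0.29, short of the limit of 0.32, once the length and GC trend was taken out.

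Txk (ENSMUSG00000054892, 72695978 to 72752777) and Tec are neighbours on the minus strand of chromosome 5, with 2938 bases between them. Their promoter windows, drawn as above, are shown because both genes were lower in the activin A culture.
Txk, chr5:72752728-72753027, minus strand: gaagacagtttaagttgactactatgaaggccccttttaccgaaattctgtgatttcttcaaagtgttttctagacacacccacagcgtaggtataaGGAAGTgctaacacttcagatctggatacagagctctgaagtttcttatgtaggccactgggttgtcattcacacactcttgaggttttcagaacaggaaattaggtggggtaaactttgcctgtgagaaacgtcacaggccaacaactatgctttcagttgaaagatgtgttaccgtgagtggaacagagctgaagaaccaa
Tec, chr5:72868399-72868698, minus strand: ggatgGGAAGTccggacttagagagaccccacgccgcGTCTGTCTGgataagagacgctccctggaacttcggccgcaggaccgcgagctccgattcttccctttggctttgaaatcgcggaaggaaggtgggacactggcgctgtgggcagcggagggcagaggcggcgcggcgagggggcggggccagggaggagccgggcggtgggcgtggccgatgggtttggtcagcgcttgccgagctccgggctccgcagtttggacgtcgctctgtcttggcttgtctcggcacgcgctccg
The Txk window held 1 ETS match. The Tec window held 1 ETS match and 2 overlapping Smad boxes.

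The adaptor step held both the most abundant component and one of the larger differences. Lat, the membrane scaffold, ranked first of the 43 in both libraries at 363 and 429 FPKM (15459 and 19738 counts). It was 1.18-fold higher in the TGFβ1 culture (1.16 to 1.21). Lcp2, which encodes SLP-76, had 7508 and 7744 counts (59.5 and 56.8 FPKM) and was 1.05-fold higher in the activin A culture (1.01 to 1.08).

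Plcg1, the enzyme assembled on that scaffold, was lower in the activin A culture. Plcg1 (ENSMUSG00000016933, chromosome 2, 160731300 to 160775760) had 5728 and 9827 counts (34.8 and 53.4 FPKM) and was 1.59-fold higher in the TGFβ1 culture (1.54 to 1.64). On the log2 scale the counts gave −0.67 and the FPKM values −0.62. Sh2d2a, for the Lck-binding adaptor TSAd, had 7439 and 10081 counts (52.2 and 66.7 FPKM) and a log2 ratio of −0.33 (−0.37 to −0.28), at the edge of the limit of 0.32.

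The linkers between LAT, SLP-76 and their partners differed by at most 1.22-fold. Grb2 and Grap2 (Gads), which bind LAT, had log2 ratios of −0.028 and 0.039 with intervals that spanned 0. The exchange factor gene Vav1 was 1.22-fold higher in the TGFβ1 culture (1.19 to 1.26), and the adaptor gene Nck1 1.13-fold (1.04 to 1.22). Themis, known from thymocyte selection, was the lowest of the step at 4.64 and 3.99 FPKM and was 1.17-fold higher in the activin A culture (1.06 to 1.30). The median of the 9 genes was −0.17, or −0.040 with the length and GC trend removed.

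The 3 genes of the PKC-θ, BCL10 and MALT1 route to NF-κB did not share a direction. Prkcq, for PKC-θ, had 4240 counts in the activin A and 6554 in the TGFβ1 culture (33.7 and 48.1 FPKM) and was 1.43-fold higher in the TGFβ1 culture (1.38 to 1.49). Bcl10 (ENSMUSG00000028191, chromosome 3, 145922804 to 145934356) had 1679 and 1412 counts (24.4 and 19.1 FPKM). It was 1.28-fold higher in the activin A culture (1.2 to 1.38), the gene of the 43 with the highest ratio. Malt1, the paracaspase gene, had 38584 and 51411 counts (216 and 267 FPKM), a level near that of CD45, and was 1.23-fold higher in the TGFβ1 culture. The log2 ratio of Malt1 was −0.30 (−0.32 to −0.28), and −0.13 without the length and GC trend.

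**Figure D3:**
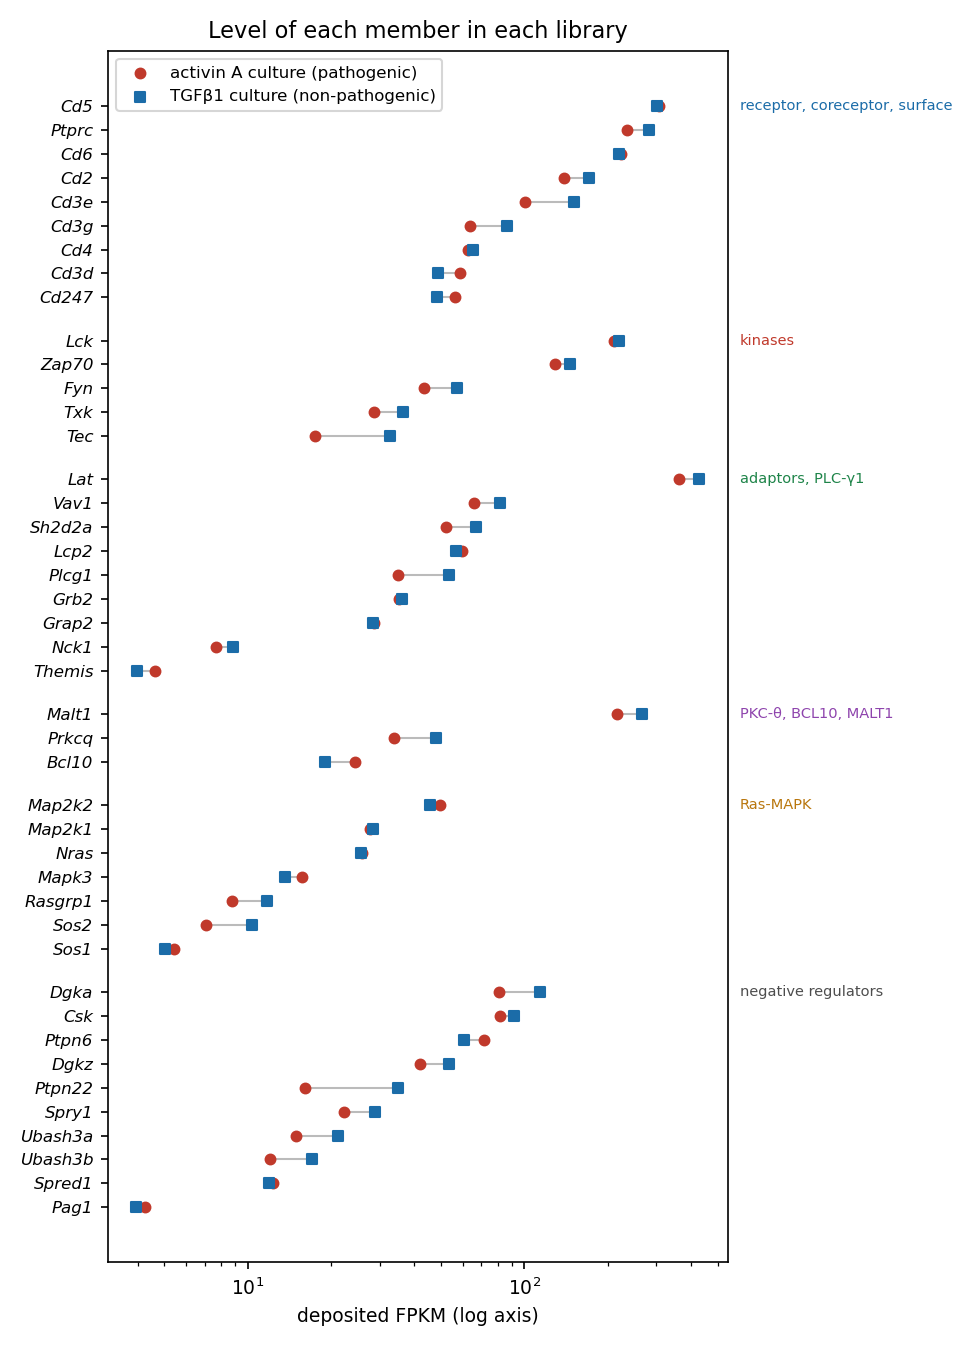
Deposited FPKM (x axis, log scale) of the 43 genes in each library, ordered within each step by the TGFβ1 culture, circles for the activin A and squares for the TGFβ1 culture. Levels run from 4.26 for Pag1 to 363 for Lat in the activin A culture, and the distance between the symbols of a gene is small beside the range between genes.

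In the Ras-MAPK step, 2 of 7 genes (28.6%) were past the limit of 0.32 and higher in the TGFβ1 culture, against 15.2% of all genes. None was higher in the activin A culture, against 16.5%. Both genes encode exchange factors, the proteins that load Ras with GTP, and the third exchange factor of the step was not past the limit. Rasgrp1, the exchange factor that diacylglycerol recruits, had 1621 and 2328 counts (8.78 and 11.7 FPKM) and was 1.33-fold higher in the TGFβ1 culture, a log2 ratio of −0.41 (−0.50 to −0.32). Sos2 had 1355 and 2145 counts (7.09 and 10.3 FPKM) and was 1.46-fold higher there (1.37 to 1.57). Its paralogue Sos1 had 1617 and 1608 counts (5.43 and 5.02 FPKM) and was 1.09-fold higher in the activin A culture (1.01 to 1.17). The FPKM of Sos2 was 1.30 times that of Sos1 in the activin A and 2.06 times in the TGFβ1 culture, the widest difference in log2 ratio among the 7 paralogue pairs compared, at 0.67.

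Downstream of these, Nras had a log2 ratio of 0.063 and Map2k1 (MEK1) of −0.030, both with intervals that spanned 0. Map2k1 had 2383 and 2630 counts (27.7 and 28.4 FPKM). Map2k2 (MEK2) had 3338 and 3178 counts (49.7 and 45.6 FPKM) and was 1.14-fold higher in the activin A culture (1.08 to 1.19). Mapk3 (ERK1) had 996 and 932 counts and was 1.15-fold higher there (1.06 to 1.26). The 7 genes of the step had a median log2 ratio of 0.063, the single step with a median above 0. That median is the value of Nras, whose interval spanned 0, and the mean over the 7 genes was −0.060.

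The 10 genes grouped as negative regulators were lower in the activin A culture more often than not, with a median log2 ratio of −0.30. Past the limit of 0.32, 5 of 10 were higher in the TGFβ1 culture. The share was 15.2% over all genes and 10.7% over the 6536 genes at or above the lowest mean level of the 43. None was higher in the activin A culture, against 16.5% and 10.9%. Restraints outside the 43 genes lay on both sides, so this direction holds for the 10 only. Dok1 (log2 ratio 0.45), Cbl (0.31) and Cblb (0.30) were higher in the activin A culture, and Lax1 (−1.36) and Rasa1 (−0.66) were lower. Ptpn22 (ENSMUSG00000027843, chromosome 3, 103859795 to 103912247), for the phosphatase PEP that dephosphorylates Lck and ZAP-70, held the lowest ratio of all 43 genes. It had 1560 counts in the activin A and 3639 in the TGFβ1 culture (16.1 and 34.9 FPKM) and was 2.16-fold higher in the TGFβ1 culture (2.03 to 2.29). Its ratio was lower than that of all but 1.57% of the 10597 genes. Csk, the kinase that inactivates Lck and partners with PEP, differed less, at 7578 and 9281 counts and 1.13-fold higher in the TGFβ1 culture (1.10 to 1.17). Pag1, for the membrane adaptor that holds Csk, was 1.09-fold higher in the activin A culture (1.01 to 1.18). The promoter window of Ptpn22 is shown because its ratio stood farthest from 1.
Ptpn22, chr3:103859545-103859844, plus strand: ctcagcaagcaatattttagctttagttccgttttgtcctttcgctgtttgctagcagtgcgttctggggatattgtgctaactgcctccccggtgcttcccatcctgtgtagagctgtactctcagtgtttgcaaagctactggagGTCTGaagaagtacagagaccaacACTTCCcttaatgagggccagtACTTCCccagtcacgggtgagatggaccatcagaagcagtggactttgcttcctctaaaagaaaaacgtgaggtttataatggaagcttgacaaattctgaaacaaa
It held 2 ETS matches and 1 Smad box.

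The STS proteins, of which STS-1 (Ubash3b) dephosphorylates ZAP-70, were lower in the activin A culture by nearly the same fold. Ubash3a had 1557 and 2363 counts (15.0 and 21.3 FPKM) and was 1.40-fold higher in the TGFβ1 culture (1.32 to 1.5). Ubash3b had 2690 and 4115 counts (12.1 and 17.0 FPKM) and was 1.42-fold higher there (1.35 to 1.49). The intervals of the pair overlapped, and their log2 ratios were 0.012 apart.

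The diacylglycerol kinases, which end the diacylglycerol signal, were also both lower in the activin A culture. Dgka had 8005 and 12195 counts (80.8 and 114 FPKM) and was 1.41-fold higher in the TGFβ1 culture (1.37 to 1.45). Dgkz had 5465 and 7399 counts (42.0 and 53.6 FPKM) and a log2 ratio of −0.33 (−0.38 to −0.27), which was just short of the limit of 0.32 when plain library totals were used.

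The remaining restraints were mixed. Ptpn6, for SHP-1, had 5495 and 5100 counts (71.6 and 60.7 FPKM) and was 1.16-fold higher in the activin A culture (1.12 to 1.21). Spry1, a Sprouty inhibitor of Ras-MAPK signalling, was 1.21-fold higher in the TGFβ1 culture (1.15 to 1.29), and on the log2 scale the counts gave −0.28 and the FPKM values −0.37. Spred1, a related inhibitor, had a log2 ratio of 0.079 with an interval from 0.00055 to 0.16. With Cd5, Cd6, Themis and Sh2d2a counted among the negative regulators, the median of the 14 genes was −0.23.

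Within the 7 paralogue pairs, the intervals of both ratios overlapped for Cd5 with Cd6 and for Ubash3a with Ubash3b. They did not overlap for Lck with Fyn, Txk with Tec, Sos1 with Sos2, Map2k1 with Map2k2, or Dgka with Dgkz. Of these 5, the pairs Sos1 with Sos2 and Map2k1 with Map2k2 lay on opposite sides of a ratio of 1, though the interval of Map2k1 included 1. How often the intervals of unrelated genes overlap was not counted, so these pairs are not set apart from other genes. Over all genes the central 90% of log2 ratios ran from −0.63 to 0.70, which is wide beside such intervals.

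**Figure D4:**
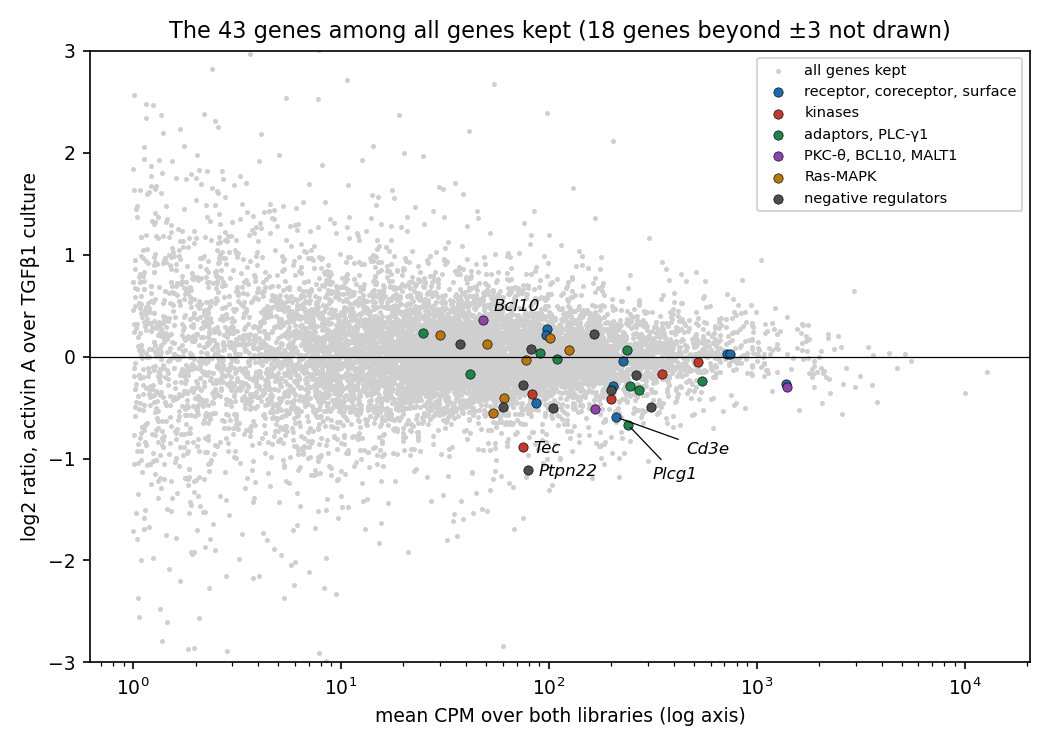
Log2 ratio (y axis, activin A over TGFβ1 culture) against mean CPM over both libraries (x axis, log scale) for the 10597 genes kept (grey, 18 genes beyond 3 in either direction not drawn) and the 43 genes (coloured by step). The 43 genes sit at 24.8 CPM or above, and Ptpn22, Tec, Plcg1 and Cd3e lie in the lower part of the cloud at their level.

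Promoter windows were found in the RefSeq table for 36 of the 43 genes. A forkhead match was in 2 of the 36 and in 3.65% of all windows. A Smad box was in 19 (49.6% of all windows), an ETS match in 13 (23.8%), an NFAT match in 9 (23.4%) and a RUNX match in 3 (16.8%). Of the 14 windows of genes past the limit of 0.32 and higher in the TGFβ1 culture, 9 held a Smad box, 5 an ETS match, 2 an NFAT match and none a forkhead or RUNX match. A longer window could hold letters that these 300 bases do not.

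Other genes of the pathway lay on both sides of a ratio of 1. Of a list of 81 further symbols, 77 were in the table and 74 passed the filter, with a median log2 ratio of −0.017. Past the log2 limit of 0.32, 14 of the 74 (18.9%) were higher in the TGFβ1 culture, against 15.2% of all genes, and 10 (13.5%) were higher in the activin A culture, against 16.5%. Among those with the highest ratios, at an average of 5 CPM or more, were Tespa1, Vav3, Nck2 and Map3k8. Tespa1, known from thymocyte selection, had 488 and 204 counts and was 2.58-fold higher in the activin A culture (2.19 to 3.06). Vav3 (2.64 and 1.70 FPKM) and Nck2 (4.35 and 2.86 FPKM) were 1.57-fold (1.36 to 1.81) and 1.52-fold (1.31 to 1.77) higher there. Their relatives Vav1 (65.9 and 81.3 FPKM) and Nck1 (7.69 and 8.83 FPKM) were higher in the TGFβ1 culture, both short of the limit of 0.32. The kinase gene Map3k8 was 1.51-fold higher in the activin A culture (1.37 to 1.66).

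Among those at the other end were Lax1, Rasa1, Map3k7 and Mapk9. Lax1, for a membrane adaptor that restrains receptor signalling, had 535 and 1485 counts and was 2.57-fold higher in the TGFβ1 culture (2.33 to 2.84). Rasa1, a Ras GTPase-activating protein gene, was 1.58-fold higher there (1.51 to 1.65). The kinase genes Map3k7 (TAK1) and Mapk9 (JNK2) were 1.48-fold (1.42 to 1.54) and 1.47-fold (1.39 to 1.56) higher.

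**Figure D5:**
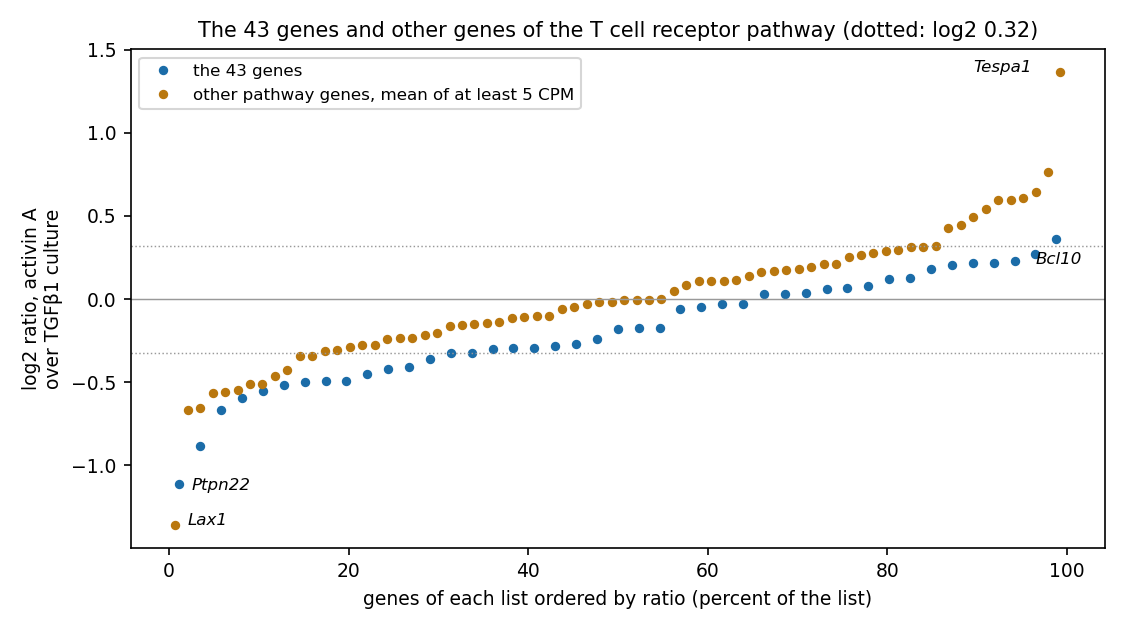
Log2 ratio (y axis, activin A over TGFβ1 culture) of the 43 genes and of the other pathway genes at 5 CPM or more on average, each list ordered by ratio (x axis, percent of the list), with dotted lines at the log2 limit of 0.32. The 43 genes run from −1.11 (Ptpn22) to 0.36 (Bcl10), and the other list runs from −1.36 (Lax1) to 1.37 (Tespa1).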

How the data were processed

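Counts per gene in 1 pathogenic and 1 non-pathogenic Th17 library were analysed. The authors deposited whole-number counts and FPKM values, 1 column for each culture (per the file headers). The build is mm10 (per the submitters' processing notes), and the aligner, counter, annotation and transcript lengths were not given in the sources used here. Per the labels' protocols the steps were poly(A) capture, fragmentation, random priming and PCR. No molecular identifiers were named, so PCR copies of a fragment were not told apart here. The intervals cover counting error only, since each condition had 1 library. Unnamed features took 2.50% (activin A) and 2.90% (TGFβ1) of counts and were left out, as were 20 rows that name no gene.

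Library sizes over named genes were scaled by TMM (edgeR 4.0.16, R 4.3.3), with factors of 1.00 in both after rounding. Ratios used CPM with a prior count of 1, and the filter was a mean over both libraries of 1 CPM or more. Counts of 2 were 3.42 (activin A) and 4.37 (TGFβ1) times as frequent as counts of 1, so a fragment can have added more than 1 count and intervals can be too narrow. Positions are from GENCODE M21. Promoter letters are RefSeq's (GRCm38.p6). The calculation was tested on simulated counts drawn independently. That test held no fragments that add more than 1 count, so it could not check whether the intervals are too narrow. A planned comparison of protein sequences was not made here. Alternatives were DESeq2 1.42.0 size factors, plain totals, other filters, a prior count of 5, FPKM ratios (pseudocount 0.1) and removal of a lowess trend on the length and GC content of the longest transcript.

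Genes named in full were core components, genes past a log2 ratio of 0.32, paralogue pairs, and the 5 highest and 5 lowest other pathway genes, of which some are not reported here. The 43 genes and all lists were chosen with earlier results of these data known, and the motifs after the ratios were seen.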

Additional observations from a re-analysis of the deposited data

How the results depend on the processing

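No paired analysis was possible because each condition had 1 library. Under DESeq2 size factors, plain totals, a filter of 5 CPM, no filter and a prior count of 5, the ratio of each of the 43 genes stayed inside its counting interval, and the median over them rounded to −0.18. With FPKM the median was −0.20 and 2 ratios left their interval, those of Plcg1 and Spry1. With the length and GC trend removed, 16 of the 43 ratios left their interval, by at most 0.17, and 1 changed sign (Cd5). The median over the 43 was then −0.15, that of the kinases −0.29, that of the adaptors −0.040 and that of the PKC-θ, BCL10 and MALT1 genes −0.13. Genes past a log2 ratio of 0.32 and higher in the activin A culture numbered 2 in place of 1, with Themis added. Those higher in the TGFβ1 culture numbered 16, with Cd2 and Spry1 gained and Txk lost. That number was 14 with plain totals, which lost Dgkz, and 16 with FPKM, which added Spry1. Among the other pathway genes, 2 in place of 1 passed 2-fold in favour of the activin A culture with no filter, the added gene being Spry2 with 9 and 0 counts. The cause of these shifts was not tested. The depth gave each of the 43 genes at least 761 counts per library. Variation between cultures was not measured.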

Other observations

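Among the 10 of the 43 genes with the highest FPKM in the TGFβ1 culture (Lat, Cd5, Ptprc, Malt1, Lck, Cd6, Cd2, Cd3e, Zap70 and Dgka), 2 were past the log2 limit of 0.32 and higher in that culture, namely Cd3e and Dgka, and among the other 33 genes 13 were (20% and 39.4%, against 15.2% of all genes and 10.7% of genes at or above the lowest level of the 43). The medians were −0.26 and −0.17. Whether these groups differ was not tested. The 43 genes together took 0.957% of the counts on named genes in the activin A and 1.10% in the TGFβ1 culture. Thy1, a surface protein of T cells outside the 43, had 3018 and 2024 counts and a log2 ratio of 0.69, against −0.59 for Cd3e and −0.046 for Cd4, so the T cell markers did not share a direction.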
